A study of Zea mays with 10 samples.

Results

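Protoplasts of maize endosperm were compared with undigested endosperm by bulk RNA-seq, in 4 of the 10 endosperm libraries analysed here. All came from the wild-type inbred line B73, grown in a greenhouse. The groups were endosperm protoplasts sampled 6 or 7 days after pollination (DAP), with 1 library at each stage, and undigested endosperm at 6 and 7 DAP, again with 1 library each. The other 6 libraries were undigested endosperm in 3 replicates at each of the same stages, and they served as a measure of the difference between preparations and as alternative controls. Protoplasts are plant cells freed of their walls, here with cellulase, macerozyme and pectolyase, and in this study they were the starting material of a single-cell atlas. Each library held RNA pooled from many endosperms. The comparison asked which genes differed after digestion and did so at both stages.

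The endosperm is the nutritive tissue of the cereal seed. At the stages sampled its cells are dividing and taking on separate identities, such as the aleurone, the basal transfer layer and the starchy endosperm, which later fills with starch and zein storage proteins. Plant cells answer wounding, wall damage and microbial elicitors within minutes to hours, with calcium signals, jasmonate synthesis and the transcription of WRKY, ERF and NAC factors. Digestion, time in solution and the loss of some cells occur together in this preparation, so their parts cannot be told apart. In bulk RNA, fewer cells of a type and less RNA per cell cannot be told apart either.

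The deposited values were counts of uniquely mapped reads. Totals on genes were 26546401 and 30203337 in protoplasts of 6 and 7 DAP, against 23151766 and 22234742 in undigested endosperm. The count table listed 45953 genes, and 22799 of them passed the filter on low counts and were tested. Values below are CPM, the counts scaled to library size with edgeR's TMM factors, given for 6 DAP and then 7 DAP, and they are not divided by gene length. The most abundant member of a list is the one with the highest mean CPM, which is not a ranking per length. A gene was called when edgeR's quasi-likelihood F test gave an adjusted p under 0.05, with the stage as a covariate and Benjamini-Hochberg adjustment over all tested genes, and a log2 fold change beyond 1 in either direction. Because each stage and treatment had 1 library, the test took the stages as replicates of each other, and a gene whose difference varied between stages had a large error.

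Separate preparations of undigested endosperm differed little beside the change seen after digestion. On the scale of log2(CPM + 1), protoplasts differed from undigested endosperm by more than 1 at 23.1% of tested genes at 6 DAP and 25.4% at 7 DAP. Undigested endosperm of this experiment differed from the mean of the replicated endosperm libraries by that much at 0.583% of genes at 6 DAP and 0.719% at 7 DAP. Set against the replicated libraries in place of their own controls, protoplasts differed at 25.1% and 26.4% of genes.

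**Figure D1:**
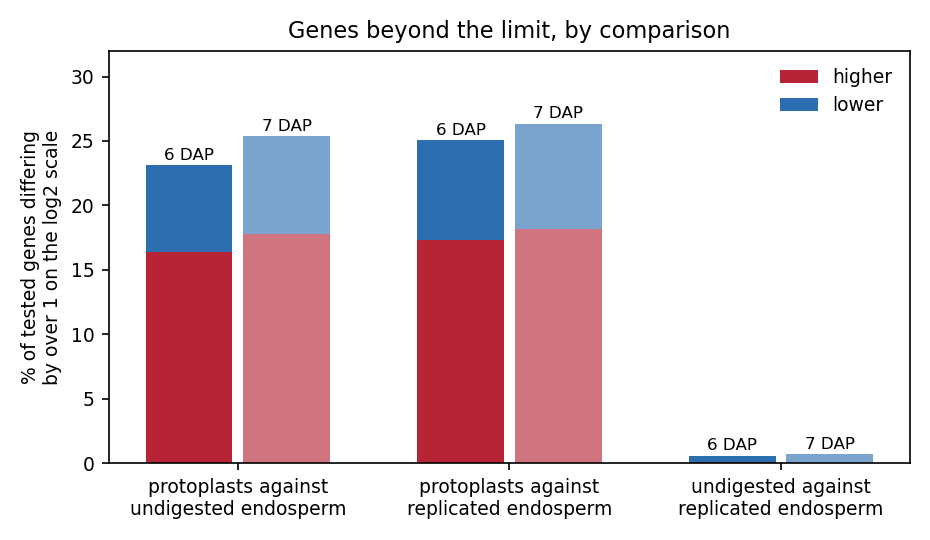
Percentage of the 22799 tested genes that differed by more than 1 on the scale of log2(CPM + 1), at 6 DAP (dark bars) and 7 DAP (pale bars), for protoplasts against undigested endosperm, protoplasts against the mean of the 3 replicated endosperm libraries, and undigested endosperm against that mean. The red part of a bar counts genes higher in the first-named group and the blue part those lower. Comparisons with protoplasts reached 23.1% to 26.4%, and those between undigested libraries 0.583% and 0.719%.

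In protoplasts, 4187 genes were called higher, which is 18.4% of those tested, and 1680 were called lower, which is 7.37%. Higher calls made up 71.4% of all calls. The median log2 fold change over all tested genes was -0.03. When library totals replaced TMM scaling, that median became -0.20, and 3750 genes were called higher and 2465 lower, so that 60.3% of calls were higher. Among genes called higher the median fold change was 5.18, with 2505 genes over 4-fold and 932 over 16-fold. Among genes called lower the median was 2.87-fold, with 469 genes over 4-fold and 79 over 16-fold. Higher calls were therefore more numerous and larger in size. At 6 DAP the genes called higher took 26.2% of all counts in protoplasts and 6.59% in undigested endosperm, and at 7 DAP they took 30% and 7.28%. Genes called lower took 2.57% and 2.80% of the counts in protoplasts, against 7.90% and 8.76% in undigested endosperm. Without the 7 DAP protoplasts the calls were 2493 higher and 655 lower, and without the 6 DAP protoplasts 3246 higher and 694 lower.

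Most calls passed the limit at each stage, a larger share of the higher ones than of the lower ones. The test took the stages as replicates, so this agreement is in part built into a call. On the scale of log2(CPM + 1), 3070 genes (13.5% of those tested) were more than 1 higher in protoplasts at both stages and 901 (3.95%) were more than 1 lower at both, while 12 genes passed the limit in opposite directions. Of the 4187 genes called higher, 3067 passed at both stages, and of the 1680 called lower, 897 did. Both protoplast libraries lay above both undigested libraries for 4167 of the genes called higher, beside 36.5% of all tested genes and 38.2% of those with a symbol or description. They lay below both for 1626 of the genes called lower, beside 35.1% of all tested genes and 29.9% of those with a symbol or description. This separation is thus nearly built into a call and adds little for the called genes named below. Both directions were present at every level of expression. Genes with a mean of at least 1000 CPM were called higher in 18.6% of cases and lower in 6.98%, and genes under 1 CPM in 19.2% and 5.58%.

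**Figure D2:**
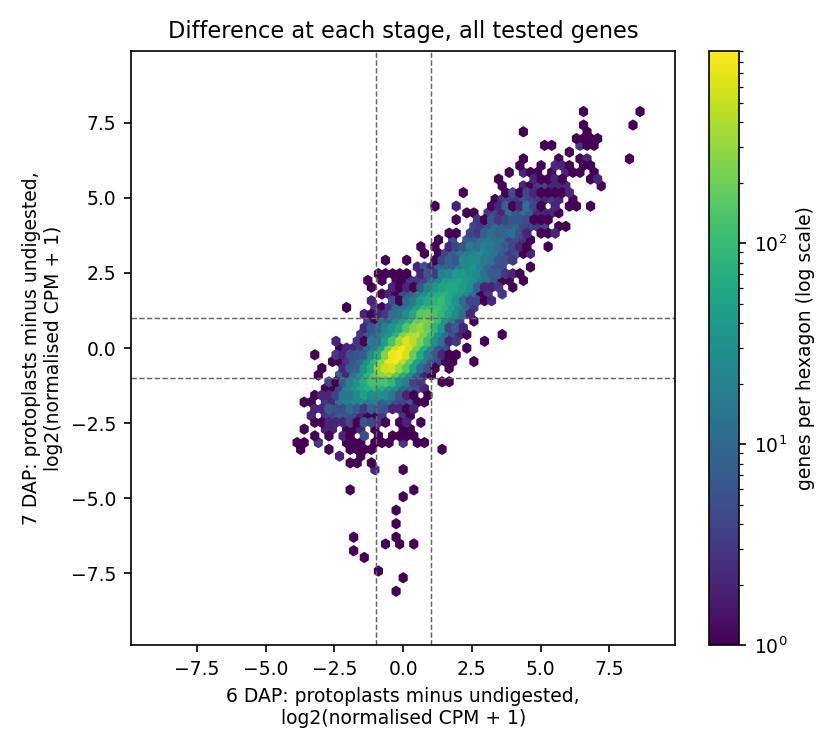
Difference between protoplasts and undigested endosperm on the scale of log2(CPM + 1), at 6 DAP (x axis) and at 7 DAP (y axis), over the 22799 tested genes, shaded by the number of genes in each hexagon on a log scale. The limits of 1 and -1 mark the 3070 genes higher and the 901 genes lower at both stages, and 12 genes lie in the opposite corners.

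Among named genes, the 12 that rose most in protoplasts were close to absent in undigested endosperm. A ranking by fold change, with a mean CPM of at least 10 required, favours such genes by construction. WRKY26, a member of the WRKY family of defence transcription factors, had 98.1 and 232 CPM in protoplasts, against 0 and 0.0414 CPM in undigested endosperm. With 1 read in both undigested libraries together, the ratio of the summed counts was 8120 (exact 95% counting interval 1460 to 321000). Zm00001d025614, annotated as a protein with an IQ calmodulin-binding and a BAG domain, stood at 116 and 121 CPM in protoplasts and at 0.0419 and 0 CPM in undigested endosperm (ratio 5710, interval 1020 to 226000). GST7, a glutathione transferase, had 89.8 and 131 CPM, against 0.0838 and 0 CPM in undigested endosperm (ratio 2680, interval 741 to 22100). None of the 3 reached even 0.1 CPM in an undigested library. The others of the 12 largest rises were a carboxylic ester hydrolase (Zm00001d036234, ratio 1270), the zinc finger proteins ZAT11 (Zm00001d042933, ratio 1110) and ZNF6 (ratio 571), the neomenthol dehydrogenases Zm00001d002847 (ratio 1080) and Zm00001d017381 (ratio 1060), WRKY95 (ratio 814), the cytochrome P450 CYP26 (688-fold), the NDR1/HIN1-like protein Zm00001d001832 (ratio 406) and the hemoglobin HB1 (ratio 363). All 12 had adjusted p-values between 0.000374 and 0.000568 in edgeR's quasi-likelihood F test. These intervals cover counting error only.

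Other genes that rose were abundant in protoplasts. Zm00001d044442, an ABC transporter of subfamily G annotated as member 40, a family of plasma membrane exporters, had 4903 and 4608 CPM in protoplasts, against 45.1 and 32.4 CPM in undigested endosperm (log2 fold change 6.96, standard error 0.21, edgeR adjusted p = 0.000374). It had the highest mean CPM of the named genes that rose. The polyubiquitin gene UBI1 had 3178 and 3032 CPM against 805 and 769 CPM (3.95-fold higher), and UBI2 had 2689 and 2866 CPM against 745 and 797 CPM (3.6-fold higher). The polyubiquitin genes share near-identical stretches and reads that map to several places were not counted, so the split between them is uncertain. Zm00001d034588, annotated as Protein CDI, and Zm00001d019750, a calcium-dependent lipid-binding protein, were 2.29-fold and 2.04-fold higher. Refits with 1 library left out keep no stage term and leave 1 library in an arm, and some of these calls were lost there. UBI2 was not called without the 7 DAP protoplasts (log2 fold change 1.81), and neither Zm00001d034588 (0.88 to 1.52) nor Zm00001d019750 (0.92 to 1.15) was called without either protoplast library or without the 6 DAP undigested library.

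**Figure D3:**
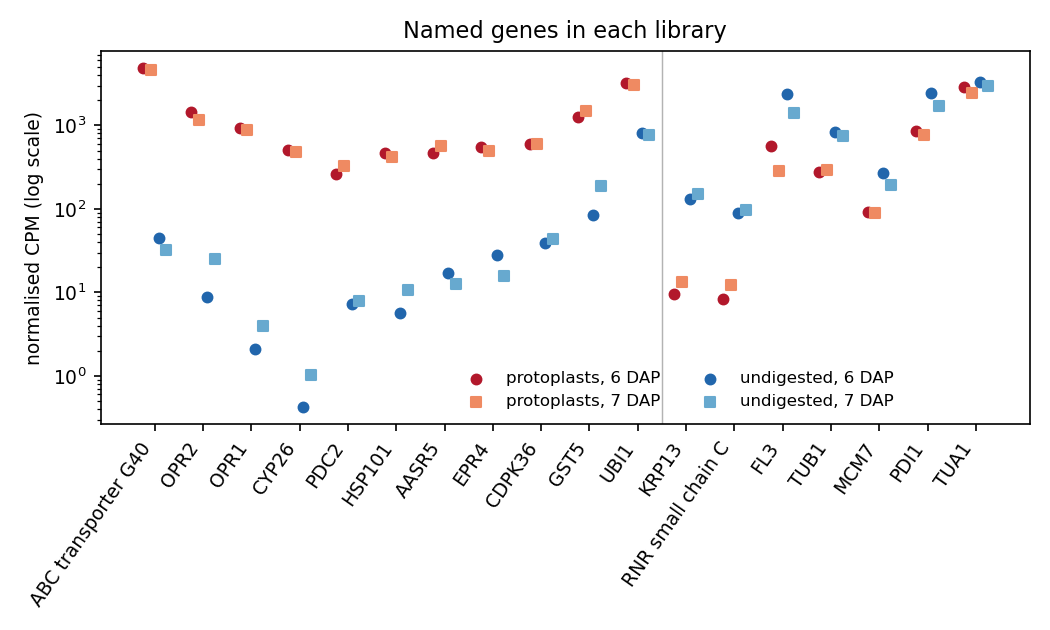
TMM-scaled CPM (y axis, log scale) of 18 named genes in each of the 4 libraries, with protoplasts of 6 and 7 DAP in red and orange and undigested endosperm of 6 and 7 DAP in dark and light blue. Genes left of the line rose, such as the ABC transporter Zm00001d044442 (4903 and 4608 CPM against 45.1 and 32.4 CPM), and those right of it fell, such as KRP13 (9.58 and 13.3 CPM against 131 and 151 CPM), except TUA1, which was not called.

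Gene lists were read against all tested genes and against the 3130 tested genes with a symbol or description, of which 776 (24.8%) were called higher and 322 (10.3%) lower. The annotations came from tables of genes found in clusters of protoplast cells, so these lists favour genes expressed in protoplasts. No list was tested as a set, and some lists share members, so their counts are not separate. Where a list had no call in one direction, DESeq2 called no member in that direction either, and the number with an unadjusted edgeR p under 0.05 was at most 2, or 3 for the mitochondrial genes.

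Jasmonate, the wound hormone, is made from fatty acids of the plastid through lipoxygenases and 12-oxo-phytodienoic acid reductases, and its repressors, the ZIM-domain (JAZ) proteins, are themselves induced by it. Of 51 genes assigned to jasmonate synthesis 43 were tested, and 16 rose and 1 fell (median log2 fold change 0.58). The reductases OPR1 and OPR2 were among the most changed. OPR1 had 938 and 878 CPM in protoplasts, against 2.09 and 3.93 CPM in undigested endosperm (309-fold, edgeR adjusted p = 0.000432). OPR2 had 1441 and 1150 CPM, against 8.84 and 25.0 CPM in undigested endosperm (85.3-fold, adjusted p = 0.00162). Both had at least 878 CPM in each protoplast library and 25.0 CPM or less in each undigested one. Among 32 genes of the jasmonate response, 26 were tested, 15 rose and none fell (median 1.99). The lipoxygenase LOX4 had 202 and 242 CPM, against 49.4 and 56.4 CPM in undigested endosperm (4.19-fold). Of 10 tested ZIM genes, some of them also in the jasmonate response list, 6 rose and 1 fell. ZIM10 had 140 and 210 CPM, against 4.02 and 3.80 CPM in undigested endosperm (43.7-fold), and ZIM18 13.7 and 22.2 CPM against 0.545 and 1.08 CPM (22.4-fold). Members did not all move one way. ZIM21, named after its values were seen, had 2.35 and 1.66 CPM in protoplasts and 7.33 and 20 CPM in undigested endosperm (6.15-fold lower), a call lost without the 7 DAP protoplasts (log2 fold change -2.53). The gene of jasmonate synthesis that fell was AAS5, an amido synthetase, at 3.46 and 2.93 CPM against 49.9 and 13.1 CPM (8.15-fold lower), whose call was lost without the 6 DAP protoplasts (-3.41) and without the 7 DAP protoplasts (-3.18).

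Of 13 wound and pathogenesis related genes, 9 rose and none fell, with a median log2 fold change of 1.86. The summed level of the list differed less, at 2334 and 2180 CPM in protoplasts against 2104 and 1250 CPM in undigested endosperm. The most abundant member of the list is not named here. The endochitinase EPR4, which cuts the chitin of fungal walls, had 545 and 493 CPM in protoplasts, against 28 and 15.6 CPM in undigested endosperm (24.7-fold). The stress-induced protein gene SIP1 had 322 and 407 CPM against 15.2 and 47.3 CPM (13.4-fold), and the pathogenesis-related gene DRG6 had 30.3 and 21.0 CPM against 2.18 and 4.30 CPM (8.02-fold). The groups did not overlap for any of these genes, as for nearly all genes called higher. The defensins DEF1 and DEF2, small antimicrobial proteins of this list named after their values were seen, rose with log2 fold changes of 2.62 and 2.25. DEF1 was not called without the 6 DAP protoplasts (3.03) or the 7 DAP protoplasts (1.55), nor DEF2 without either of these (2.52 and 1.05) or without the 6 DAP undigested library (1.13).

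Transcription factors of families known for stress and defence were mostly higher in protoplasts. Of 27 tested WRKY genes, 21 rose and 1 fell (median log2 fold change 2.86), and 21 were more than 1 higher at both stages. WRKY48, the most abundant of them, had 508 and 643 CPM in protoplasts, against 16.3 and 18.6 CPM in undigested endosperm (32.8-fold, standard error of the log2 fold change 0.16, edgeR adjusted p = 0.000374). WRKY32 had 27.9 and 41.7 CPM, against 0.335 and 0.455 CPM (ratio of counts 89.1, exact 95% interval 56.9 to 148). WRKY72 went the other way, at 14.7 and 26.6 CPM against 32.5 and 61.8 CPM (2.27-fold lower). It was named after its values were seen, and it was not called without either protoplast library (-0.79 without 6 DAP and -1.68 without 7 DAP) or without the 7 DAP undigested library (-0.66). VQ proteins bind WRKY factors, and all 4 tested VQ genes rose. They were VQ27 (5.09 and 37.8 CPM against 0.251 and 0.0414 CPM), VQ21 (4.69 and 5.69 CPM against 0 and 0.0414 CPM), VQ10 (25.2 and 31.2 CPM against 2.18 and 2.56 CPM) and VQ19 (37.2 and 61.7 CPM against 13.4 and 7.90 CPM).

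Heat shock factors switch on chaperone genes. Of 10 tested, 9 rose (median log2 fold change 3.13). HSFTF6, the most abundant, had 301 and 425 CPM in protoplasts, against 13.9 and 9.68 CPM in undigested endosperm (30.7-fold), HSFTF1 had 214 and 146 CPM against 3.85 and 9.59 CPM (28-fold), and HSFTF17 had 79.2 and 135 CPM against 4.69 and 6.16 CPM (19.3-fold). The member that was not called, HSFTF5, is annotated as heat stress factor A-1a, a class that in Arabidopsis is present before stress, and had 31.8 and 31.4 CPM against 64.3 and 51.7 CPM. Of 23 tested NAC genes, 17 rose and none fell, and 17 were more than 1 higher at both stages. NACTF5 had 108 and 328 CPM against 6.33 and 9.80 CPM (24.1-fold), NACTF4 had 342 and 429 CPM against 18.8 and 21.8 CPM (18.9-fold), and NACTF77, the most abundant, had 692 and 856 CPM against 214 and 211 CPM (3.62-fold). The NAC genes named were higher in each protoplast library than in each undigested one, as were nearly all genes called higher.

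EREB genes encode AP2/ERF factors of the ethylene, drought and wound responses. Of 46 tested, 26 rose and 4 fell (median log2 fold change 1.42). EREB111 had 69.6 and 85.3 CPM in protoplasts, against 0.377 and 0.165 CPM in undigested endosperm (ratio of counts 288, exact 95% interval 168 to 541). EREB63, annotated as TINY, had 11 and 23.9 CPM against 0.335 and 0.0414 CPM (ratio 95.2, interval 49.9 to 209), and EREB79, a dehydration-responsive element-binding protein, 43.3 and 125 CPM against 1.55 and 0.786 CPM (63.0-fold). The groups were far apart for all of these, which were picked as the largest changes of the list. The 4 that fell were EREB71 (5.37 and 11.4 CPM against 55 and 36.3 CPM), EREB45 (2.19 and 1.17 CPM against 20 and 4.22 CPM), EREB102 (3.06 and 3.92 CPM against 12.7 and 18.3 CPM) and EREB109 (30 and 32.1 CPM against 106 and 109 CPM), of which all but EREB71 were named after their values were seen. EREB109 was not called against the replicated endosperm libraries (-0.97). EREB45 was not called without either protoplast library (-3.36 and -2.46) or without the 6 DAP undigested library (-1.33). Of 30 tested bZIP genes 14 rose and none fell (median 0.62).

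**Figure D4:**
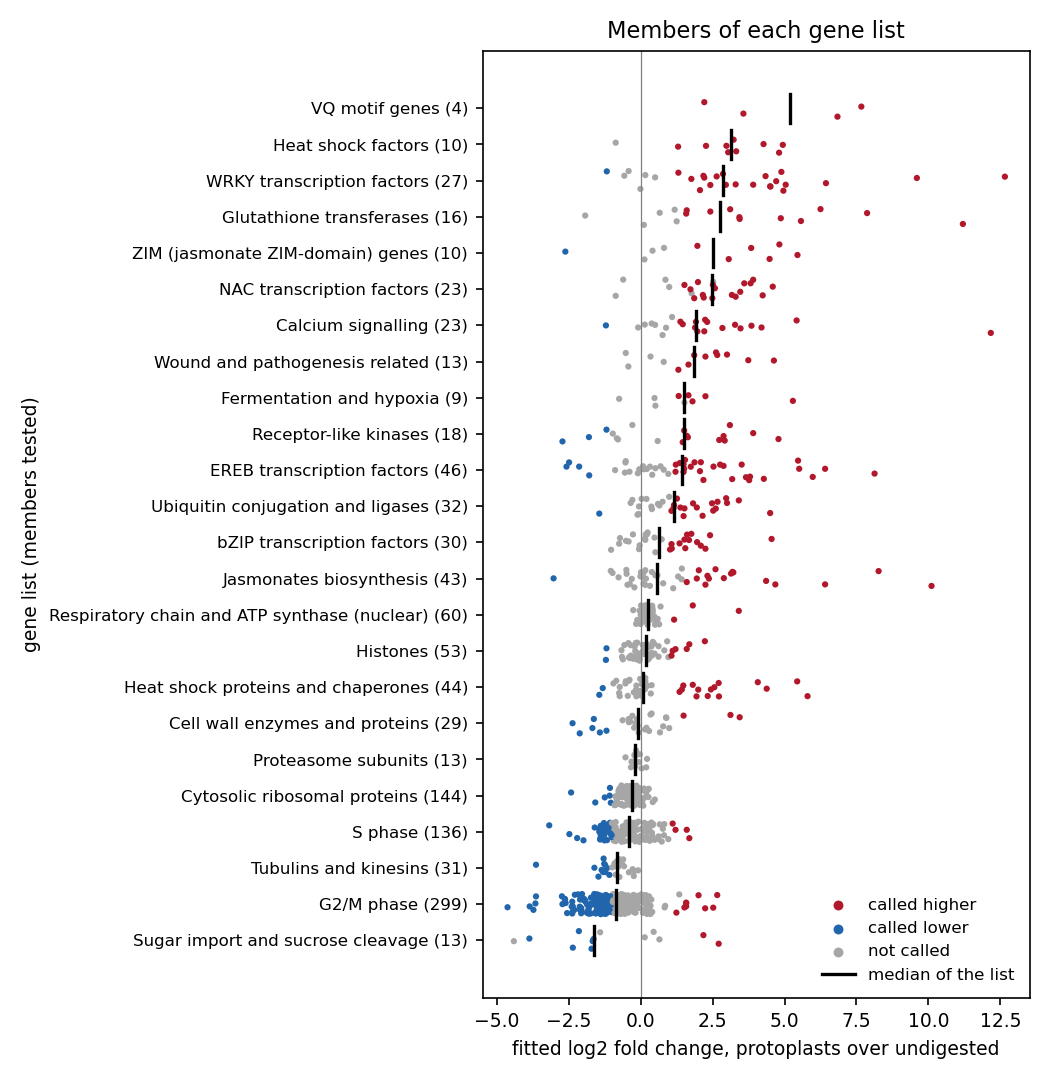
Fitted log2 fold change, protoplasts over undigested endosperm, of each tested member of the gene lists (points, red where called higher, blue where called lower and grey where not called) with the median of the list (black bar), with the number of members tested beside each list name. Heat shock factors (median 3.13) and WRKY genes (2.86) lie to the right of 0 and G2/M phase genes (-0.86) and tubulins and kinesins (-0.84) to the left, beside a median of -0.03 over all tested genes.

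Genes of detoxification and export rose in most tested members. Glutathione transferases join glutathione to reactive compounds, and of 16 tested, 11 rose and none fell (median log2 fold change 2.76). GST5, the most abundant, had 1246 and 1498 CPM in protoplasts, against 84.0 and 188 CPM in undigested endosperm (10.9-fold, edgeR adjusted p = 0.0013). GST24 had 99.6 and 87.9 CPM, against 0.335 and 0.455 CPM (ratio of counts 236, exact 95% interval 151 to 393). Glutathione transferases have close copies, so reads shared between them are missing from these values. The next families were picked after their values were seen, and their counts are descriptions. Of 13 tested cytochrome P450 genes, a family of oxygenases, 9 rose and 1 fell (median 2.72). Zm00001d006947, annotated as CYP709C14, had 1844 and 1697 CPM against 5.28 and 21.1 CPM (162-fold), CYP26 had 511 and 480 CPM against 0.419 and 1.03 CPM, and CYP11 had 206 and 253 CPM against 0.880 and 2.36 CPM (149-fold). The P450 gene that fell, CYP18, had 1.75 and 1.06 CPM against 11.8 and 22.6 CPM (11.8-fold lower). Of 8 listed UDP-glycosyltransferases, which attach sugars to small molecules, 7 rose. The list leaves out IAGLU1, which joins glucose to auxin and was 5.52-fold lower. The eighth listed member, CNGT1, had 391 and 386 CPM against 752 and 826 CPM (2.03-fold lower). Its log2 fold change of -1.02 no longer passed the limit without either protoplast library (-1 each) or without the 7 DAP undigested library (-0.96).

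Of 6 ABC transporters, 5 rose and the median log2 fold change was 2.83. Beside Zm00001d044442 these were Zm00001d043762, of subfamily B, with 840 and 964 CPM in protoplasts, against 18.2 and 30.1 CPM in undigested endosperm (38.3-fold), and Zm00001d047664, annotated as a multidrug resistance protein, with 159 and 198 CPM against 6.49 and 8.64 CPM (23.6-fold). MRPA5, of subfamily C, had 362 and 330 CPM against 143 and 181 CPM (2.14-fold), and Zm00001d026426, of subfamily B, had 213 and 264 CPM against 93.0 and 138 CPM (2.09-fold). Like nearly all genes called higher, these were higher in each protoplast library than in each undigested one. The calls of MRPA5 (0.93 to 1.16) and Zm00001d026426 (0.79 to 1.22) were lost without either protoplast library and without the 6 DAP undigested library, and under library totals (0.93 and 0.90).

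Genes of water deficit rose as well. Of 10 dehydrin and abscisic stress ripening genes, a list also made after the values were seen, 9 rose (median log2 fold change 4.40). Dehydrins are hydrophilic proteins that accumulate in drying tissue. DHN3, the most abundant, had 1121 and 836 CPM in protoplasts, against 91.1 and 124 CPM in undigested endosperm (9.10-fold), and DHN1 had 74.1 and 102 CPM against 0.796 and 3.43 CPM (46.7-fold). AASR9 had 89.1 and 138 CPM against 1.01 and 0.951 CPM (113-fold), AASR7 105 and 158 CPM against 2.14 and 2.52 CPM (55.7-fold), and AASR5 466 and 559 CPM against 17.1 and 12.7 CPM (34.6-fold). The groups did not overlap for any of these, as for nearly all genes called higher. The member not called, AASR1, had 30.8 and 22.8 CPM against 17.1 and 11.2 CPM. Among 7 tested genes of the abscisic acid response, a list that shares AASR7 and AASR9 with the one above, 5 rose and 1 fell. The one that fell was RAB15, which is itself named for its response to abscisic acid, at 203 and 165 CPM against 453 and 479 CPM (2.54-fold lower), and it was not called without the 6 DAP protoplasts (-1.47) or without the 7 DAP protoplasts (-1.19).

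Calcium signalling genes encode the sensors that read calcium pulses. Of 23 tested, 15 rose and 1 fell (median log2 fold change 1.92). The calcium-dependent protein kinase CDPK36, the most abundant, had 596 and 593 CPM in protoplasts, against 38.7 and 43.6 CPM in undigested endosperm (14.5-fold, standard error of the log2 fold change 0.15, edgeR adjusted p = 0.000425). The calmodulin-like protein CML38 (Zm00001d042056) had 146 and 314 CPM against 5.61 and 4.38 CPM (42.9-fold), and Zm00001d049244, a relative of Zm00001d025614 by its annotation, had 148 and 191 CPM against 8.21 and 10.2 CPM (18.4-fold). Of 18 tested receptor-like kinases, which sense ligands at the cell surface, 10 rose and 3 fell (median 1.49). The chitin elicitor receptor kinase 1 gene (Zm00001d031676) had 160 and 236 CPM against 21.7 and 23.6 CPM (8.59-fold), a lectin S-receptor-like kinase (Zm00001d032408) had 216 and 288 CPM against 9.93 and 8.19 CPM (27.6-fold), and a leucine-rich repeat kinase (Zm00001d038522) had 327 and 408 CPM against 25.1 and 23.6 CPM (15-fold). Of those that fell, the meristematic receptor-like kinase Zm00001d052323 had 20 and 32.5 CPM against 156 and 181 CPM (6.59-fold lower, adjusted p = 0.000919) and the lectin-domain kinase Zm00001d037371 had 10.5 and 16.7 CPM against 38.8 and 54.7 CPM (3.47-fold lower). The third, Zm00001d010304, was 2.29-fold lower, and its call was lost without the 6 DAP protoplasts (-0.94) and without the 7 DAP undigested library (-0.99).

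Genes of protein folding and turnover moved in both directions. Of 44 tested heat shock proteins and chaperones 15 rose and 2 fell, and the median was 0.07, a value that changed sign with library totals (-0.09). HSP101, the ClpB disaggregase, had 466 and 420 CPM in protoplasts, against 5.74 and 10.8 CPM in undigested endosperm (55.6-fold), and the chloroplast chaperone ClpD (Zm00001d016664) had 489 and 526 CPM against 11.4 and 12 CPM (43.4-fold). HSP70-6 had 900 and 1148 CPM against 53.7 and 68.1 CPM (16.8-fold), whereas HSP70-4, with more counts than any other member, had 3733 and 2899 CPM against 3480 and 2487 CPM and was not called (adjusted p = 0.386). HSP26, a small heat shock protein, had 25.3 and 46.0 CPM against 1.13 and 2.32 CPM (20.9-fold). The members that fell were the DnaJ protein Zm00001d015839 (2.72-fold) and HSP3 (2.50-fold), the second not called without the 7 DAP protoplasts (-1.15) or without the 6 DAP undigested library (-0.98). Of 32 tested genes of ubiquitin conjugation and ligation, which mark proteins for degradation, 18 rose and 1, the RING/U-box gene Zm00001d035764, fell (2.72-fold). The ligase RGLG1 (Zm00001d042437) had 663 and 767 CPM against 28.7 and 34.7 CPM (22.6-fold). None of the 13 proteasome subunits was called in either direction (log2 fold changes from -0.53 to 0.22).

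Folding proteins of the endoplasmic reticulum, a list made after the values were seen, had none called higher and 2 called lower among 11 tested (median log2 fold change -0.55). The lumenal chaperone BIP1 had 196 and 124 CPM in protoplasts, against 421 and 451 CPM in undigested endosperm (2.79-fold lower), and the disulfide isomerase PDI1 had 855 and 768 CPM against 2464 and 1684 CPM (2.51-fold lower). Both were lower at each stage. BIP1 was not called without the 7 DAP protoplasts (-1.14), and PDI1 was not called without the 6 DAP protoplasts (-1.41), without the 7 DAP protoplasts (-1.27) or against the replicated endosperm libraries (-0.96).

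Fermentation genes, which keep glycolysis running when oxygen is short, had 5 of 9 members higher and none lower (median log2 fold change 1.52). The pyruvate decarboxylase PDC2 had 265 and 326 CPM in protoplasts, against 7.21 and 7.86 CPM in undigested endosperm (39.1-fold, edgeR adjusted p = 0.000374). PDC3 had 1493 and 1692 CPM against 520 and 404 CPM (3.47-fold), and the alcohol dehydrogenase ADH1 had 1609 and 1522 CPM against 724 and 337 CPM (3.17-fold). A hypoxia-responsive family gene (Zm00001d017060) had 67.3 and 68.0 CPM against 16.2 and 12.5 CPM (4.76-fold). Not all members that rose are named here. Outside this list, HB1, whose product binds oxygen and scavenges nitric oxide, had 68.9 and 81.6 CPM against 0.293 and 0.124 CPM. PDC1 was above both undigested libraries in each protoplast library, with 1443 and 2209 CPM against 1072 and 360 CPM, but was not called (adjusted p = 0.0842). PDC3 was not called without the 7 DAP protoplasts (1.70), nor ADH1 without the 6 DAP protoplasts (1.54) or the 7 DAP protoplasts (1.61).

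Of the lists described, that of G2/M phase had the most tested genes and held the most that were lower in protoplasts. Of its 299 tested genes, 117 fell and 9 rose (median log2 fold change -0.86), and 96 were past the limit at both stages. Those that fell were 39.1%, beside 7.37% of all tested genes and 10.3% of those with a symbol or description. Some smaller lists had a larger share, such as the noncoding RNA loci (61.7%). Of 136 tested S phase genes 30 fell and 4 rose (median -0.41). Tubulins form the spindle and kinesins move along it, and of 31 tested none rose and 11 fell (median -0.84). The kinesin KRP13 had 9.58 and 13.3 CPM in protoplasts, against 131 and 151 CPM in undigested endosperm (12.4-fold lower, standard error of the log2 fold change 0.16, edgeR adjusted p = 0.000458). KRP2 had 67.8 and 82.3 CPM against 215 and 243 CPM (3.06-fold lower), and the beta tubulin TUB1 had 276 and 295 CPM against 825 and 751 CPM (2.76-fold lower). The most abundant member, the alpha tubulin TUA1, had 2915 and 2434 CPM against 3326 and 2935 CPM and was not called, with a log2 fold change of -0.23 that turned to 0.05 against the replicated libraries. Tubulins have close copies, whose shared reads were not counted. Zm00001d017043, a G2/M gene without a functional description, had 1.67 and 1.73 CPM against 20.8 and 24.5 CPM (13.3-fold lower). TUB1 was not called without the 6 DAP protoplasts (-1.39) or the 7 DAP protoplasts (-1.51).

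Genes that copy DNA were lower too. In a list made after the values were seen, 7 of 17 fell and none rose (median log2 fold change -0.87). The small chain of ribonucleotide reductase, the enzyme that makes deoxyribonucleotides, was covered by Zm00001d003164, with 8.35 and 12.3 CPM in protoplasts against 88.8 and 95.7 CPM in undigested endosperm (9.06-fold lower, edgeR adjusted p = 0.000709), and by Zm00001d045649, with 34.1 and 57.0 CPM against 189 and 163 CPM (3.97-fold lower). RFA1, a subunit of the single-strand binding protein RPA, had 38.4 and 40.1 CPM against 147 and 96.6 CPM (3.04-fold lower). The replicative helicase subunits MCM6 (54.3 and 48.4 CPM against 149 and 111 CPM) and MCM7 (92.4 and 89.1 CPM against 268 and 193 CPM) were each 2.51-fold lower. The 4 S phase genes that rose were all histone genes, of which HIS403 and Zm00001d006547 were named after their values were seen. They were the histone H4 genes HIS405 (267 and 312 CPM against 111 and 81.4 CPM) and HIS403 (171 and 190 CPM against 96.2 and 63.3 CPM) and the histone H2A genes Zm00001d006548 (173 and 228 CPM against 70 and 53.8 CPM) and Zm00001d006547 (222 and 263 CPM against 149 and 83.6 CPM). Histone genes occur in near-identical copies and these levels are uncertain. Of 53 tested histone genes 6 rose and 2 fell (median 0.19). MCM6 was not called without the 7 DAP protoplasts (-1.25) or MCM7 without either protoplast library (-1.35 and -1.31), and neither HIS403 (0.90 to 1.27) nor Zm00001d006547 (0.70 to 1.20) was called without either protoplast library or without the 7 DAP undigested library. Against the replicated endosperm libraries HIS403 was at 0.07 and HIS405 at 0.89, and neither was called.

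Among auxin response genes, the AUX/IAA list had shares of calls near the background, and the response factor list leaned lower. Of 22 tested AUX/IAA genes, repressors of that response, 5 rose (22.7%) and 2 fell (9.09%), with a median log2 fold change of 0.24. Among tested genes with a symbol or description, 24.8% rose and 10.3% fell. Of 33 tested auxin response factor genes, transcription factors that read the auxin signal, 10 fell (30.3%) and 1 rose (3.03%), with a median of -0.36. ARFTF14 had 6.28 and 7.31 CPM in protoplasts, against 30.6 and 58.3 CPM in undigested endosperm (6.26-fold lower, edgeR adjusted p = 0.00181), and ARFTF7 had 5.21 and 4.27 CPM against 19.2 and 18.7 CPM (4.01-fold lower). The most abundant, ARFTF10, went the other way without being called, at 278 and 449 CPM against 181 and 185 CPM. IAGLU1, which joins glucose to auxin, had 6.36 and 7.17 CPM against 25.9 and 53.0 CPM (5.52-fold lower). The rest of the 12 largest falls were of mixed function. The aquaporin PIP2E, a water channel of the plasma membrane, had 13 and 7.21 CPM against 39.2 and 66.0 CPM (5.22-fold lower), the protease inhibitor HFI1 had 90.4 and 62.3 CPM against 236 and 691 CPM (5.38-fold lower), and LEG1 had 89.0 and 59.9 CPM against 325 and 866 CPM (7.27-fold lower). Patellin-1 (Zm00001d042664), a lipid-binding protein of the cell plate in Arabidopsis and 1 of the 5 most abundant named genes that fell, had 207 and 203 CPM against 880 and 699 CPM (3.83-fold lower). The undigested levels of HFI1 and LEG1 differed more between stages than their protoplast levels. HFI1 was not called without the 6 DAP protoplasts (-2.85) or the 7 DAP protoplasts (-2.35), and LEG1 was not called without the 7 DAP protoplasts (-2.73).

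Among genes of storage and sugar supply, the differences depended on the stage. All 7 tested zein and starch synthesis genes had negative log2 fold changes (median -3.97), and 3 were called lower. SH2, the large subunit of ADP-glucose pyrophosphorylase that commits glucose to starch, had 3.02 and 1.55 CPM in protoplasts, against 13.9 and 65.1 CPM in undigested endosperm (13.6-fold lower, edgeR adjusted p = 0.0217), and AGP2, of the same enzyme family, 15.9 and 23.8 CPM against 34.2 and 77.9 CPM. The 27-kDa zein gene ZP27 had 84.4 and 9.50 CPM against 244 and 1325 CPM, and the sucrose synthase SH1 18.8 and 4.24 CPM against 71.0 and 581 CPM, and neither was called (adjusted p = 0.101 and 0.0689). Both were higher at 7 than at 6 DAP in undigested endosperm and lower at 7 than at 6 DAP in protoplasts. The zein gene GZ50 had 0.239 and 0 CPM against 0.419 and 42.3 CPM, with a call (adjusted p = 0.0408) that was lost without the 7 DAP undigested library (-1.83), the 6 DAP protoplasts (-12.05) or the 7 DAP protoplasts (-6.44), and DESeq2 did not call it (-6.93). Zein genes have close copies whose shared reads were not counted. Over all tested genes, 17 were more than 4 lower on the log2(CPM + 1) scale at 7 DAP and none was at 6 DAP. Of 13 genes of sugar import and sucrose cleavage 6 fell and 2 rose (median -1.64). The cell wall invertase MN1 had 170 and 92.9 CPM against 888 and 179 CPM (3.18-fold lower), whereas the sucrose synthase SUS2 had 540 and 477 CPM against 45.9 and 129 CPM (6.57-fold higher). SH2 was not called without the 7 DAP protoplasts (-3.70), AGP2 (-0.79 to -1.81) without either protoplast library or the 7 DAP undigested library, and MN1 without the 6 DAP protoplasts (-2.51), the 7 DAP protoplasts (-1.64) or the 6 DAP undigested library (-0.44).

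The enzymes used to release protoplasts act on the cell wall, and genes of the wall went both ways. Of 29 tested, 3 rose (10.3%) and 6 fell (20.7%). Among all tested genes 18.4% rose and 7.37% fell, and among those with a symbol or description 24.8% and 10.3%. The list thus had fewer rises and more falls than either background. The pectinesterase PME26 had 291 and 292 CPM in protoplasts, against 37.7 and 29.7 CPM in undigested endosperm (8.71-fold higher), and the glucanase ENG1 had 255 and 290 CPM against 29.1 and 21.6 CPM (10.8-fold higher). An arabinogalactan peptide gene (Zm00001d009415) had 18.2 and 23.5 CPM against 131 and 87.6 CPM (5.17-fold lower), and a cellulose synthase-like gene (Zm00001d023810), named after its values were seen, had 59.8 and 99.4 CPM against 297 and 377 CPM (4.34-fold lower). The groups did not overlap for any of them, as for nearly all genes called. The median of the list was -0.11 and turned to 0.07 against the replicated endosperm libraries.

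Large sets of basic functions had few calls, whereas noncoding RNA loci had many. Of 144 cytosolic ribosomal protein genes none rose and 6 fell (median log2 fold change -0.29). Of 60 nuclear genes of the respiratory chain and ATP synthase, 3 rose and none fell (median 0.24, and -0.08 against the replicated libraries). The largest of these rises was a succinate dehydrogenase iron-sulfur subunit gene (Zm00001d005663) at 17.0 and 46.2 CPM in protoplasts, against 2.30 and 3.10 CPM in undigested endosperm (10.6-fold). None of the 16 tested mitochondrial genes was called (median -0.01). Of 94 tested noncoding RNA loci, 58 fell and 3 rose (median -3.02). On the log2(CPM + 1) scale, which damps differences at low counts, the medians were -0.92 at 6 DAP and -0.77 at 7 DAP. On that scale 28 loci were more than 1 lower at both stages. All 1645 such loci together took 0.00482% and 0.00537% of the counts in protoplasts, against 0.0253% and 0.0222% in undigested endosperm.

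Markers of the endosperm cell types were all detected in protoplasts, at levels that differed by cell type. None of the 3 aleurone markers was called, though all were lower in protoplasts at each stage. AL9, which changed least, had 1884 and 3060 CPM in protoplasts, against 2050 and 3811 CPM in undigested endosperm (log2 fold change -0.22). SBT1 (-0.56, edgeR adjusted p = 0.0484) and VPP7 (-0.51, adjusted p = 0.0954) were below both undigested libraries in each protoplast library, but within the fold limit. Of 6 basal transfer layer markers only BETL9 was called, at 56.3 and 53.4 CPM against 293 and 106 CPM (3.22-fold lower). All 5 markers of the embryo surrounding region fell. ESR1 had 28.1 and 217 CPM against 106 and 635 CPM (3.31-fold lower), and the summed level of the 5 was 91.8 and 751 CPM against 358 and 1890 CPM. Of 5 starchy endosperm markers 4 were called lower. ZP27 was also lower at both stages, at 84.4 and 9.50 CPM against 244 and 1325 CPM, but was not called (edgeR adjusted p = 0.101). FL3 (floury3), which encodes a PLATZ transcription factor, was at 559 and 282 CPM against 2406 and 1391 CPM (4.61-fold lower). Their sum was 1959 and 1722 CPM against 5065 and 7022 CPM. The calls include DE18 and TAR1, which make auxin in the endosperm, at 179 and 269 CPM against 373 and 1503 CPM (3.42-fold lower) and at 1133 and 1160 CPM against 2029 and 2739 CPM (2.06-fold lower). Both markers of the endosperm adjacent to the scutellum fell, with SWEET15A at 1.83 and 2.30 CPM against 6.62 and 16.3 CPM (5.14-fold lower), and MS8 at 7.43 and 7.88 CPM against 23.3 and 61.2 CPM (4.98-fold lower).

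Most of the marker calls were lost in refits with 1 library left out, which keep no stage term and leave 1 library in an arm, and the part of cell loss in the changes of other genes was not tested. Without the 7 DAP protoplasts none of BETL9 (-1.82), ESR1 (-3.71), ESR2 (-3.55), ESR6 (-2.76), MEG14 (-4.33), 1d038758 (-3.25), FL3 (-1.76), SH2 (-3.70), DE18 (-2.38), TAR1 (-1.06), SWEET15A (-2.64) or MS8 (-2.50) was called. Without the 6 DAP protoplasts all of these but FL3 and SH2 again lost the call, the embryo surrounding region markers at -0.27 to -0.73. Calls were also lost without the 7 DAP undigested library for DE18 (-0.74) and TAR1 (-0.83), and without the 6 DAP undigested library for BETL9 (-0.95), ESR2 (-2.11), MEG14 (-2.19) and 1d038758 (-1.85). Without the 7 DAP undigested library the embryo surrounding region markers turned to values between 0.02 and 0.51, uncalled. Those fits compared 7 DAP protoplasts with 6 DAP endosperm in part, since no stage term could be kept. The 4 embryo markers (GLB1, a globulin gene, and the oil body genes OBAP1A, OLE1 and OLE3) were not called, and their sum was 83.6 and 225 CPM in protoplasts, against 53.9 and 441 CPM in undigested endosperm. HMG9, the marker of dividing cells, had 111 and 145 CPM against 223 and 255 CPM and was not called, with a log2 fold change of -0.91.

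**Figure D5:**
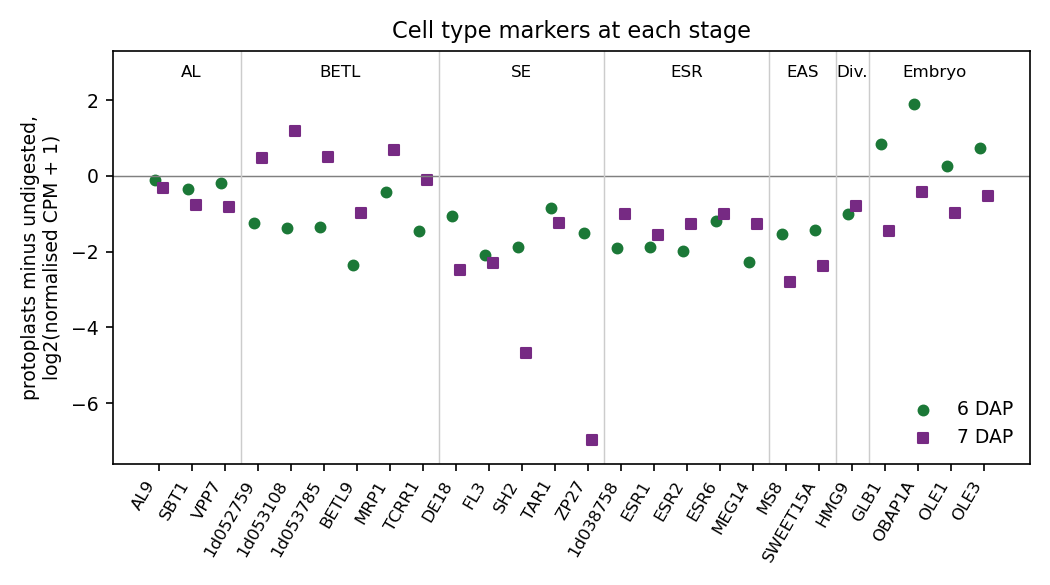
Difference of log2(CPM + 1), protoplasts minus undigested endosperm, of each cell type marker at 6 DAP (circles) and 7 DAP (squares), grouped by cell type: AL for aleurone, BETL for the basal transfer layer, SE for starchy endosperm, ESR for the region around the embryo, EAS for endosperm beside the scutellum, Div. for dividing cells, then embryo. AL, SE, ESR and EAS markers lie below 0 at both stages, while 4 BETL and 4 embryo markers have opposite signs at the stages.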

How the data were processed

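RNA was sequenced from endosperm protoplasts and undigested endosperm of B73 at 6 and 7 DAP, and groups were taken from the sample labels. The authors trimmed reads with Trimmomatic 0.39, used STAR to align them to B73 and counted uniquely mapped reads per gene with featureCounts 2.0.1. The deposited values were raw counts, without normalization. Reads shared by near-identical genes are missing, and the strand setting is not given in the sources used here. The labels name a library kit that the methods do not. Total counts were 22234742 to 30203337.

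Counts were analysed with edgeR 4.0.16 in R 4.3.3 (TMM, filterByExpr with a minimum count of 10, quasi-likelihood F test, stage as covariate, Benjamini-Hochberg adjustment). The common biological coefficient of variation was 0.19, and each gene had 1 residual degree of freedom. On simulated data, 95 of 100 genes changed by 1.5 on the log2 scale and 100 of 100 changed by 3 were recovered, with 8 unchanged genes called among 22484. The simulation gave every gene the same dispersion and no difference between stages, and changed only genes above a limit on summed counts. These rates therefore do not carry over to the data, where differences varied between stages and many genes had few counts. Differences within a stage were taken on log2(CPM + 1), without p-values. DESeq2 1.42.0, other scalings, filters, limits and pseudocounts, the replicated endosperm libraries and leaving out each library were alternatives.

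Named genes were those with a symbol or description that were the 12 largest rises or falls, or the 5 most abundant, among genes called, with mean CPM of at least 10, no overlap between groups and a difference beyond 1 at both stages. The cell type markers, HSP26 and UBI1 were added. The 3 largest calls and the most abundant member of each list were candidates, but not all of them are named in the text. The genes named outside this rule, after their values were seen, were EREB45, MRPA5, HIS403, MAS1, WRKY72, MN1, Zm00001d005945, Zm00001d006547, Zm00001d010304, MCM6, Zm00001d015839, HSP3, EREB109, EREB102, AASR1, Zm00001d023810, DEF2, DEF1, AASR5, Zm00001d026426, HSP70-6, CYP18, ZIM21, ADH1, HSFTF5, Zm00001d035764, Zm00001d037371, Zm00001d040519, SH1, Zm00001d045861 and MCM7. Gene names, lists and markers came from the study's supplementary tables, some of which were shortened, with 7366 genes of the table listed there. The lists and members were chosen with earlier results of these data known. The lists of cytochrome P450, UDP-glycosyltransferase, ABC transporter, dehydrin, DNA replication and endoplasmic reticulum folding genes were made after values were seen. Genome coordinates and sequences were not used here.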

Additional observations from a re-analysis of the deposited data

Results flagged for a closer look

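Differences between protoplasts and undigested endosperm at 6 and 7 DAP went in opposite directions, each beyond 1 on the log2(CPM + 1) scale, for 12 genes. Protoplasts were below undigested endosperm at 6 DAP and above it at 7 DAP for 9 of them, and 3 were the reverse. With 1 library per stage and treatment the difference between stages was not tested. The larger shifts included Zm00001d040519, with 16.4 and 10.3 CPM in protoplasts of 6 and 7 DAP against 5.40 and 122 CPM in undigested endosperm, Zm00001d045861, with 0.239 and 21.7 CPM against 1.76 and 3.68 CPM, and Zm00001d005945, with 18.7 and 107 CPM against 80.3 and 44.8 CPM. MAS1 had 2.31 and 7.38 CPM against 0.168 and 17.1 CPM. The log2 difference at 7 DAP minus that at 6 DAP was -4.89 for Zm00001d040519, 3.44 for Zm00001d045861, 3.28 for Zm00001d005945 and -2.61 for MAS1. These genes were named after their values were seen.

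Among the cell type markers, 8 also had differences of opposite sign at the stages, and for these too the difference was not tested. The change given is the log2 difference at 7 DAP minus that at 6 DAP. For the embryo genes it was -1.26 for OLE1, -1.28 for OLE3, -2.31 for GLB1 and -2.31 for OBAP1A, which were higher in protoplasts at 6 DAP and lower at 7 DAP. For basal transfer layer markers it was 1.11 for MRP1, 1.73 for 1d052759, 2.54 for 1d053108 and 1.84 for 1d053785, whose difference was negative at 6 DAP and positive at 7 DAP. 1d053108, for example, had 103 and 203 CPM in protoplasts, against 269 and 89.8 CPM in undigested endosperm.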

How the results depend on the processing

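Alternative values were taken for 161 genes, drawn from the naming rule or named in the text. Of these 1448 values, 1268 kept their direction and their side of the threshold, 111 lost the call, 32 gained one and 37 changed sign. Leaving out a library, which also removed the stage term, accounted for most of these. Of 134 such genes called, 45 lost the call without some library, 31 of them among the 52 lower ones. Genes called higher numbered 2555 with glmTreat at the limit of 1 and 2505 with a log2 limit of 2, and 2493 to 4350 without 1 library. Genes called lower numbered 502 with glmTreat, 469 with a log2 limit of 2, 3725 with no fold limit, 2730 against the replicated endosperm libraries and 655 to 1841 without 1 library. Against the replicated libraries 3937 of the genes called higher and 1400 of those called lower were called again, and 64.4% of the calls were higher. DESeq2 called 3847 higher and 1460 lower. The genes past the limit at both stages numbered 2037 higher with a pseudocount of 5 CPM and 1243 with a limit of 2, and 1471 lower with a pseudocount of 0.1 CPM, 428 with one of 5 CPM and 63 with a limit of 2. Causes of these changes were not tested beyond what each setting does by construction. Library totals turned the log2 fold changes of MRP1 (-0.03), OLE3 (-0.08) and HSP70-4 (-0.01), and the replicated libraries those of OLE3 (-0.24), TUA1 (0.05), 1d053108 (0.01), MAS1 (-0.06) and Zm00001d005945 (0.46), and DESeq2 that of Zm00001d045861 (-0.11). All of these genes were uncalled in the comparison itself. Calls were also lost for WRKY72 (-0.79), CNGT1 (-0.74), EREB109 (-0.97), TAR1 (-0.82), PDI1 (-0.96), HIS403 (0.07) and HIS405 (0.89) against the replicated libraries, for Zm00001d019750 (0.86), MRPA5 (0.93), Zm00001d006547 (0.95) and Zm00001d026426 (0.90) with library totals, and for GZ50 with DESeq2 (-6.93).

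Without 1 library the log2 fold change of some genes spanned 0. It ran from -2 to 1.49 for OLE1, -0.56 to 0.86 for MRP1, -0.63 to 0.26 for AL9, -1 to 1.42 for OLE3, -1.97 to 1.6 for GLB1 and -0.53 to 4.61 for OBAP1A. It ran from -4.33 to 0.51 for MEG14, -3.55 to 0.17 for ESR2, -3.71 to 0.20 for ESR1, -2.76 to 0.42 for ESR6 and -3.25 to 0.02 for 1d038758. It ran from -0.08 to 0.42 for HSP70-4, -1.89 to 0.32 for TCRR1, -1.14 to 0.38 for 1d052759, -0.82 to 0.77 for 1d053108 and -1.16 to 0.33 for 1d053785. It ran from -1.89 to 4.81 for MAS1, -1.74 to 0.79 for Zm00001d005945, -3.2 to 1.3 for Zm00001d040519 and -3.47 to 3.03 for Zm00001d045861. The share of genes that separated undigested endosperm from the replicated libraries, with 1 replicate left out as an alternative chosen after seeing the data, was 0.509% to 0.649% at 6 DAP and 0.649% to 0.759% at 7 DAP. The stage term of the comparison pairs the protoplast and undigested libraries of a stage, and without it 3984 genes were called higher and 1494 lower. No paired analysis was possible because, apart from this pairing by stage, the libraries carry no replicate numbers. With 1 library per stage and treatment, variation between digestions was not measured, and genes with few counts have wide counting intervals.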
